A study of Mus musculus with 4 samples.

Results

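RGS genes encode regulators of G protein signalling, and 8 of them, Rgs2, Rgs3, Rgs4, Rgs10, Rgs12, Rgs16, Rgs17 and Rgs19, were followed here in satellite cells, the stem cells that lie along skeletal muscle fibres. The members are every probe set of the array whose annotated symbol is one of these 8 genes, which gave 22 of the 45101 probe sets. The 8 genes were chosen by their measured levels and their cKO-control differences on these same arrays, so levels and differences of the RGS genes are a description and carry no test. The cKO mice were Calcr flox/flox and the control mice Calcr +/+ at the calcitonin receptor gene. Mice of both groups carried the tamoxifen-dependent Pax7-CreERT2 and the Rosa-YFP reporter, received tamoxifen and were 10 weeks old. Cells with YFP were purified by sorting 2 weeks after tamoxifen and were not cultured. The Cre is driven from Pax7, so the deletion applies to cells that express Pax7. Each group had 2 biological replicates on 1 array each, which limits the precision. The number of mice behind a replicate is not stated, so the spread between replicates may be partly technical.

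A heterotrimeric G protein signals while its alpha subunit holds GTP. RGS proteins bind that active subunit and speed up its GTP hydrolysis, which ends the signal. Most RGS proteins act on the Gi, Go, Gz or Gq classes and not on Gs, the class through which the calcitonin receptor raises cAMP. The calcitonin receptor also couples to Gq. The small R4 class (Rgs2, Rgs3, Rgs4, Rgs16) is known for fast changes in transcript level, the R12 class (Rgs10, Rgs12) includes both a small protein and a large scaffold, and the RZ class (Rgs17, Rgs19) carries a string of cysteines that takes up fatty acids.

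Calcr itself read 568 and 684 on the cKO arrays and 1268 and 1424 on the control arrays, which goes in the direction of the labels. Whether its probes read the deleted part is not known here. All 12 satellite cell markers of the list used here passed the filter on low values, Pax7 and Myf5 among them. Their sum was 29518 and 31377 on cKO replicates 1 and 2 and 29210 and 37738 on control replicates 1 and 2. Of these 12, which include Calcr itself, 11 were highest on control replicate 2. In the log2 difference of cKO minus control, 10 were below 0, against 58.9% of all probe sets that passed the filter. Transcripts of other cell types differed between the arrays. Endothelial markers summed to 9620 and 2468 on cKO replicates 1 and 2 and to 10235 and 2183 on control replicates 1 and 2, and in both groups 14 of 16 had at least 2 times the signal on replicate 1 that they had on replicate 2. Leukocyte markers summed to 1775 and 744 on cKO replicates 1 and 2 and to 1395 and 2840 on control replicates 1 and 2. Of these 18 leukocyte markers, only 6 passed the filter, and 0 were listed at a signal of 0. Of the 18, 11 were lowest on cKO replicate 2 and 11 were highest on control replicate 2. In such bulk samples, fewer cells of a type and less RNA per cell cannot be told apart.

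Of the 22 RGS probe sets, 16 passed the filter, which keeps probe sets whose mean log2 signal reaches the overall median, 63.9 in signal. They covered 7 of the 8 genes. The highest-lying RGS probe set that failed was 1443250_at of Rgs2, at a mean of 42.4, and the lowest that passed was 1429380_at of Rgs12, at 73.8. Of the 22519 probe sets tested with limma between cKO and control, 0 had an adjusted p under 0.05 (0.0%), and 163 had an unadjusted p under 0.05 (0.724%). No RGS probe set therefore passed the test, and the differences below are given as values. Signals of different probe sets depend on their probes, so levels are compared between arrays and never between probe sets.

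**Figure D1:**
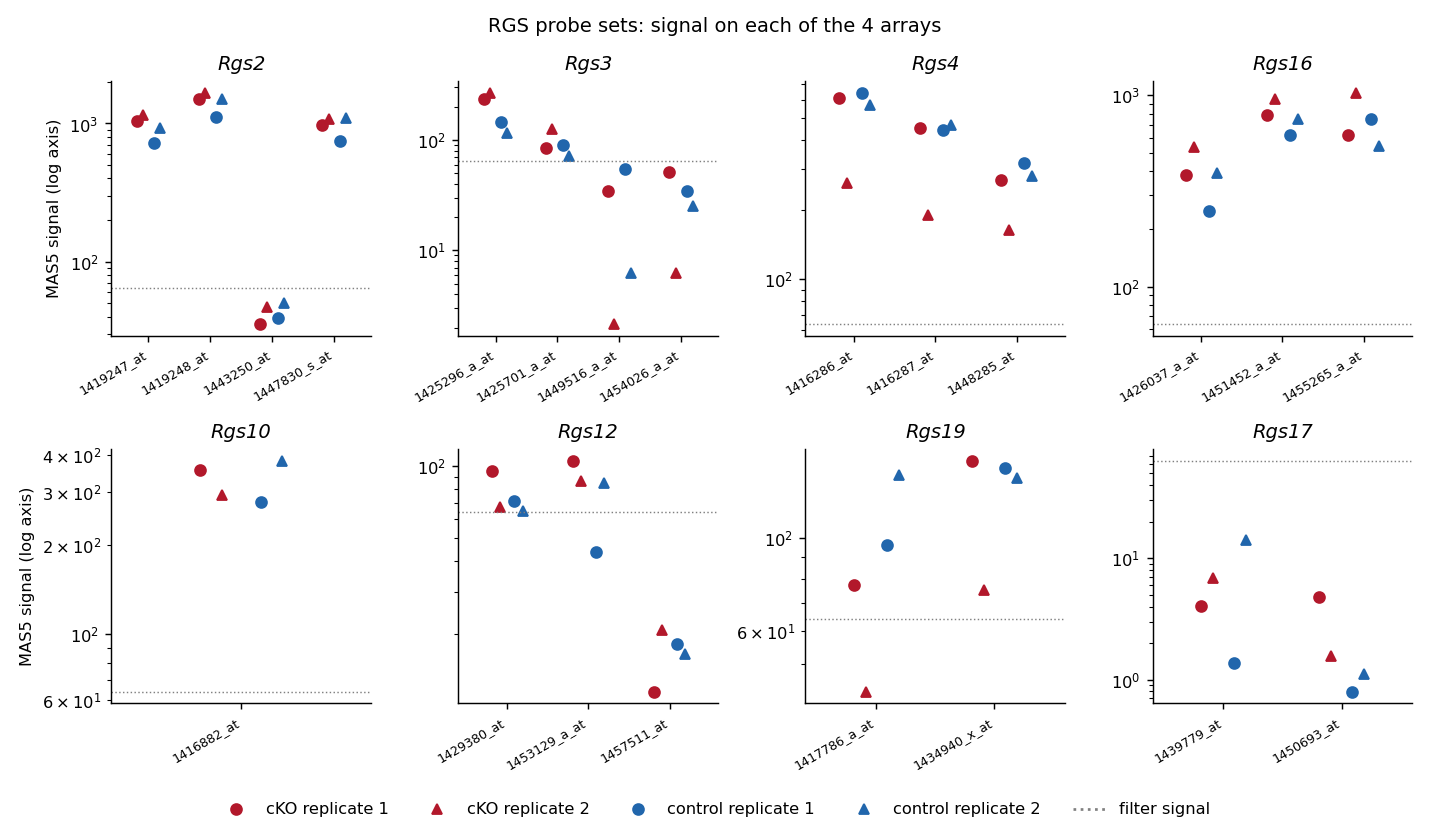
MAS5 signal (vertical log axes, each with its own range) of all 22 RGS probe sets on cKO replicates 1 and 2 (red circle and triangle) and control replicates 1 and 2 (blue circle and triangle), with the filter signal of 63.9 as a dotted line. The 3 probe sets of Rgs4 share a low cKO replicate 2, and both probe sets of Rgs17 lie below the filter on every array.

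Among the 16 kept RGS probe sets, 10 were above 0 and 6 below 0 in the log2 difference of cKO minus control, with a range of -1.01 to 0.95. Over all kept probe sets, 41.1% were above 0 and 58.9% below. The median was 0.26 over the RGS probe sets and -0.06 over all kept probe sets. Both cKO arrays were above both control arrays for 4 RGS probe sets, against 7.87% of all kept probe sets, and below both for 2, against 13.5%. In all, 6 RGS probe sets did not overlap between the groups, against 21.4%. Since the genes were chosen with these differences known, nothing is read from those counts. The kept probe sets of a gene always shared the sign of their mean difference: Rgs2, Rgs3, Rgs12 and Rgs16 were above 0, and Rgs4, Rgs10 and Rgs19 below. The sign of Rgs10 turned after quantile normalization and after centring of the arrays. The difference was larger than the gaps between replicates in both groups for 4 RGS probe sets, 1 each of Rgs2, Rgs3, Rgs16 and Rgs19. Over all kept probe sets that share was 12.6%.

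**Figure D2:**
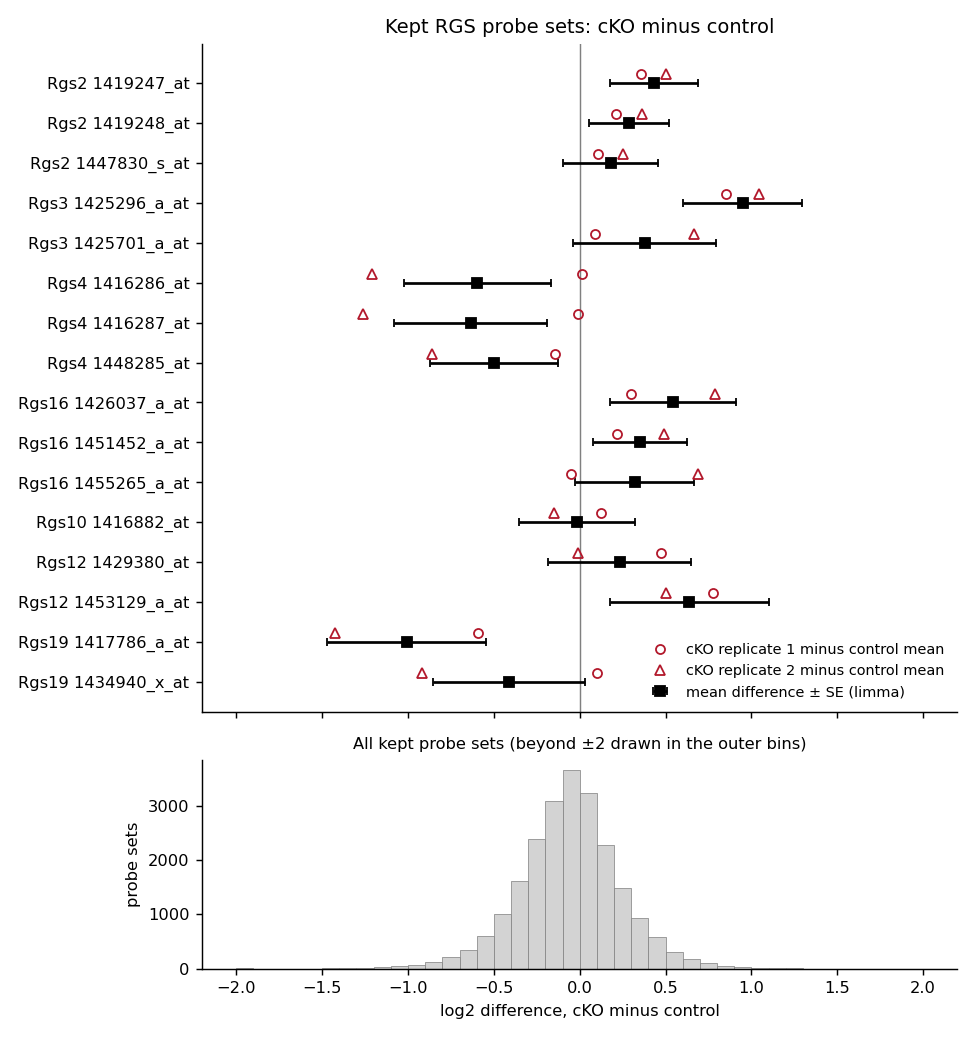
Upper panel, the log2 difference (horizontal axis, cKO minus control) of the 16 kept RGS probe sets as black squares with the SE from limma (2 arrays a group), and each cKO array minus the control mean as open red symbols. Lower panel, the distribution of the same difference over all 22519 kept probe sets, which has its median at -0.06. The RGS differences run from -1.01 (Rgs19) to 0.95 (Rgs3), and the open symbols lie far apart for Rgs4.

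Rgs3 had the highest difference of the kept RGS probe sets, and it was seen on 1 of its 4 probe sets more than on the others. Rgs3 acts on Gi and Gq subunits and is made in several forms, one of which carries a PDZ domain and binds ephrin-B. Probe set 1425296_a_at of Rgs3 read 235 and 269 on the cKO arrays and 144 and 117 on the control arrays. The groups did not overlap, and both control arrays were low. Its means were 252 ± 24.1 in cKO and 130 ± 19.5 in control cells (SD, n = 2 each), and the log2 difference was 0.95 (SE 0.35), or 1.93-fold. The second kept probe set of Rgs3, 1425701_a_at, read 84.9 and 127 in cKO and 89.4 and 71.0 in control cells, so that its groups overlapped and cKO replicate 2 stood above the other 3 arrays. Its log2 difference was 0.38 (SE 0.41). The remaining probe sets of Rgs3 were dim. Probe set 1449516_a_at of Rgs3 read 34.6 and 2.16 in cKO and 54.7 and 6.31 in control cells, so it was high on replicates 1 and low on replicates 2 in both groups, as the endothelial markers were, and the part of endothelial cells in it was not tested. Probe set 1454026_a_at of Rgs3 read 51.2 and 6.23 in cKO and 34.3 and 25.3 in control cells. The higher signal in cKO was therefore a reading of 1425296_a_at and of neither dim probe set. On 1425701_a_at it rested mainly on cKO replicate 2, without which the log2 difference was 0.09. Which Rgs3 transcripts each probe set reads is not known here, and no order of isoform levels follows from signals of different probes.

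RefSeq (GRCm38.p6) lists 2 starts for Rgs3 in the promoter table, and the 250 bases before each are shown because the Rgs3 probe sets did not behave alike. The first lies at chr4:62559597-62559846 and the second at chr4:62619422-62619671, both on the plus strand. Capitals would mark TGACG, the core of the cAMP response element, on either strand, and neither window holds it.
Rgs3 first start: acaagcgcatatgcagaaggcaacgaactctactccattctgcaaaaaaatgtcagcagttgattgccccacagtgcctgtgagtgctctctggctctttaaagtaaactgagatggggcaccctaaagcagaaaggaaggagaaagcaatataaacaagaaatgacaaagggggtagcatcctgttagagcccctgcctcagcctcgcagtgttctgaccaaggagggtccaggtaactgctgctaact
Rgs3 second start: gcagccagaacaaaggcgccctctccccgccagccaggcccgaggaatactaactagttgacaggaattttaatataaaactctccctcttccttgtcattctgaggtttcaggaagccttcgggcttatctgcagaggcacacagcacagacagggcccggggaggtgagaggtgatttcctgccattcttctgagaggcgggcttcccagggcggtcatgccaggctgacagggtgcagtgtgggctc
The windows hold TATAAA at 100 to 95 bases before the first start and at 177 to 172 bases before the second. They contain 48.4% and 56.8% G and C.

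Rgs2 was the R4 member with the smallest spread between its cKO arrays. It favours Gq over other alpha subunits, and it is a known early response gene whose transcript is induced by cAMP in several cell types. Probe set 1419247_at of Rgs2 read 1049 and 1157 in cKO and 722 and 925 in control cells, without overlap. The log2 difference was 0.43 (SE 0.26), with means of 1103 ± 76.1 in cKO and 824 ± 144 in control cells (SD, n = 2 each). Probe set 1419248_at of Rgs2 read 1505 and 1672 in cKO and 1122 and 1506 in control cells, with control replicate 2 just above cKO replicate 1. Probe set 1447830_s_at of Rgs2 read 973 and 1080 in cKO and 751 and 1090 in control cells, and here control replicate 2 was the brightest array. On all 3 kept probe sets of Rgs2, control replicate 1 was the lowest array, and the gap between the control arrays (0.36 to 0.54 on the log2 scale) exceeded the gap between the cKO arrays (0.14 to 0.15). Without control replicate 1 the log2 differences were 0.25, 0.07 and -0.09 in the same order. The fourth probe set, 1443250_at of Rgs2, was dim, at 35.4 and 46.9 in cKO and 39.0 and 50.1 in control cells.

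Rgs16, which acts on Gi and Gq subunits, had 3 kept probe sets that were above 0 on average and did not order the arrays alike. Probe set 1451452_a_at of Rgs16 read 790 and 955 in cKO and 616 and 752 in control cells, without overlap. Its log2 difference was 0.35 (SE 0.27), and its means were 872 ± 117 in cKO and 684 ± 96.5 in control cells (SD, n = 2 each). Probe set 1426037_a_at of Rgs16 read 383 and 539 in cKO and 249 and 390 in control cells, with control replicate 2 just above cKO replicate 1. On both, replicate 2 was higher than replicate 1 within each group. Probe set 1455265_a_at of Rgs16 read 617 and 1031 in cKO and 753 and 542 in control cells, so that the control arrays stood in the other order. On all 3 probe sets of Rgs16, cKO replicate 2 was the brightest array. The log2 differences of 1426037_a_at and 1455265_a_at were 0.54 (SE 0.37) and 0.32 (SE 0.34). Without cKO replicate 2, the last of these was -0.05.

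The value of Rgs4 in cKO cells rested on a single array, cKO replicate 2, on all 3 of its probe sets. The Rgs4 protein acts on Gi and Gq subunits, and in mouse it is removed through its second residue, a cysteine, as are Rgs5 and Rgs16, so transcript and protein need not move together. Probe set 1416286_at of Rgs4 read 612 and 261 in cKO and 643 and 569 in control cells. Probe set 1416287_at of Rgs4 read 452 and 189 in cKO and 445 and 467 in control cells. Probe set 1448285_at of Rgs4 read 270 and 164 in cKO and 317 and 280 in control cells, the only one of the 3 without overlap. The arrays cKO replicate 1, control replicate 1 and control replicate 2 lay close together on each, and cKO replicate 2 was the lowest on all 3. The gap between the cKO arrays was 0.72 to 1.25 on the log2 scale, and that between the control arrays 0.07 to 0.18. The log2 differences were -0.60, -0.64 and -0.50 (SE 0.43, 0.44 and 0.37). Without cKO replicate 2 they were 0.02, -0.01 and -0.14, and without cKO replicate 1 they were -1.21, -1.26 and -0.86. The array that was low for Rgs4 had the lowest median signal of all arrays, 57.9. It was also the lowest for the summed leukocyte signal and for the summed Schwann cell signal. The Schwann cell sum was 4535 and 2980 on cKO replicates 1 and 2 and 4386 and 3450 on control replicates 1 and 2. Pmp22 held the largest part of that sum and read 2888 and 2753 in cKO and 2729 and 2985 in control cells. Mbp read 1194 and 55.4 in cKO and 1249 and 96.2 in control cells, so it separated the arrays by replicate number. Of the 6 Schwann cell markers measured, 4 passed the filter, 3 were lowest on cKO replicate 2, and 0 were listed at a signal of 0. The pericyte and smooth muscle markers summed to 16412 and 9777 in cKO and 13339 and 12705 in control cells, and 6 of 12 were lowest on cKO replicate 2. Acta2, the brightest of them, read 4947 and 3562 in cKO and 4288 and 4190 in control cells. In both groups, 6 of the 12 had at least 2 times the signal on replicate 1 that they had on replicate 2. Sox10, a defining Schwann cell marker, read 28.8 and 5.04 in cKO and 47.3 and 29.3 in control cells. All 4 of these Sox10 signals were below the filter signal. Kcnj8, a defining pericyte marker, read 601 and 148 in cKO and 502 and 52.3 in control cells, lowest on control replicate 2. The part of these cells in the Rgs4 signal was not tested.

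Rgs2, Rgs4 and Rgs16 lie on mouse chromosome 1, and the 250 bases before the RefSeq start of each (GRCm38.p6) are shown because these R4 genes are known as inducible and the calcitonin receptor raises cAMP. The Rgs2 window is chr1:144004150-144004399 on the minus strand, the Rgs4 window chr1:169747643-169747892 on the minus strand, and the Rgs16 window chr1:153740103-153740352 on the plus strand. Each sequence runs in the direction of its gene, and capitals mark the core of the cAMP response element, TGACG or its reverse complement CGTCA.
Rgs2: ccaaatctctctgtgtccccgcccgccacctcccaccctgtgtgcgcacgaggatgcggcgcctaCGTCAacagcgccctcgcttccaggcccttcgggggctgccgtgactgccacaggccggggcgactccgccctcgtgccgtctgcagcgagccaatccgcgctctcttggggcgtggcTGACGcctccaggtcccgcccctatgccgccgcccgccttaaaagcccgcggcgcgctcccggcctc
Rgs4: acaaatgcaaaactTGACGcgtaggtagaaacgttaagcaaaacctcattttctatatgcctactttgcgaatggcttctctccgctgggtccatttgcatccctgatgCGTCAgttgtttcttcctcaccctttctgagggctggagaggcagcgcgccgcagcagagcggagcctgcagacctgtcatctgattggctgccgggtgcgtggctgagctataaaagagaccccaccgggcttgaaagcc
Rgs16: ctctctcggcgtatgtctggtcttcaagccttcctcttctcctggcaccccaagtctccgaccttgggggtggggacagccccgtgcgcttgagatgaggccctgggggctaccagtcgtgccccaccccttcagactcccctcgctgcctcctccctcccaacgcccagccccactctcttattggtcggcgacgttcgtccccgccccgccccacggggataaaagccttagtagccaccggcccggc
Rgs2 holds the core at 185 to 181 and at 67 to 63 bases before its start, and Rgs4 at 236 to 232 and at 141 to 137 bases. Rgs16 does not hold it. Of the 12 RefSeq windows of the 8 genes, 3 hold the core (Rgs2, Rgs4 and the second start of Rgs12), against 17.8% of 32851 windows of all genes. The full palindrome TGACGTCA was in 0 of the 12, against 1.55% of all. TATAAA was in 3 of the 12 (both Rgs3 windows, and Rgs4 at 31 to 26 bases) against 12.4%, and CCAAT on either strand was in 3 of the 12 (Rgs2, Rgs4, Rgs16) against 33.8%. The core was thus in Rgs2, whose signal was on average above 0 in the difference of cKO minus control, and in Rgs4, whose signal was below, and a match of letters says nothing of binding.

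Of the R12 genes, Rgs10 was close to 0 in the difference, and Rgs12 was above 0 on both kept probe sets. Rgs10, a small protein selective for Gi that is best known from microglia and other myeloid cells, had 1 probe set, 1416882_at, which read 356 and 294 in cKO and 278 and 384 in control cells. Both cKO arrays of Rgs10 lay between the control arrays, and the log2 difference was -0.01 (SE 0.34). Rgs12, a large scaffold that also binds Ras and inactive Gi, was read close to the filter signal. Probe set 1453129_a_at of Rgs12 read 105 and 86.6 in cKO and 43.9 and 84.4 in control cells. The groups did not overlap, but control replicate 2 was only just below cKO replicate 2, and control replicate 1 was below the filter signal. Its log2 difference of 0.64 (SE 0.47) was 0.17 without control replicate 1. Probe set 1429380_at of Rgs12 read 94.7 and 67.7 in cKO and 71.6 and 64.6 in control cells, with a log2 difference of 0.23 (SE 0.41). The third, 1457511_at of Rgs12, read 11.5 and 20.7 in cKO and 18.2 and 16.5 in control cells.

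Of the RZ genes, Rgs19 passed the filter on both of its probe sets and Rgs17 was not above the filter. Rgs19, first described as a partner of a Gi subunit and tied to vesicles through the adaptor GIPC, had the lowest difference of the kept RGS probe sets. Probe set 1417786_a_at of Rgs19 read 77.3 and 42.8 in cKO and 96.3 and 142 in control cells, without overlap but with cKO replicate 2 below the filter signal. Its means were 60.1 ± 24.4 in cKO and 119 ± 32.2 in control cells (SD, n = 2 each), and the log2 difference was -1.01 (SE 0.47), a 2.01-fold difference. With a pseudocount of 32 this log2 difference was -0.72. The second probe set of Rgs19, 1434940_x_at, read 154 and 75.2 in cKO and 148 and 139 in control cells, so that 3 arrays lay together and cKO replicate 2 was low. Its suffix marks probes that can match other transcripts. Its log2 difference of -0.41 (SE 0.44) was 0.10 without cKO replicate 2, while that of 1417786_a_at was -0.59. On 1417786_a_at the order from control replicate 2 down to cKO replicate 2 had the same ends as the summed leukocyte signal, 1775 and 744 in cKO and 1395 and 2840 in control cells. The summed satellite cell signal was also highest on control replicate 2, at 37738. Among the defining leukocyte markers, Ptprc read 28.3 and 2.23 in cKO and 21.6 and 39.5 in control cells. All 4 of these Ptprc signals were below the filter signal. Cd74 read 111 and 49.5 in cKO and 89.7 and 451 in control cells. Cd68 ordered the arrays otherwise, at 402 and 282 in cKO and 334 and 195 in control cells. The part of leukocyte transcripts in the Rgs19 signal was not tested. Rgs17 read 4.05 and 6.86 in cKO and 1.38 and 14.2 in control cells on 1439779_at, and 4.80 and 1.58 in cKO and 0.793 and 1.10 in control cells on 1450693_at, and such signals have no usable order.

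**Figure D3:**
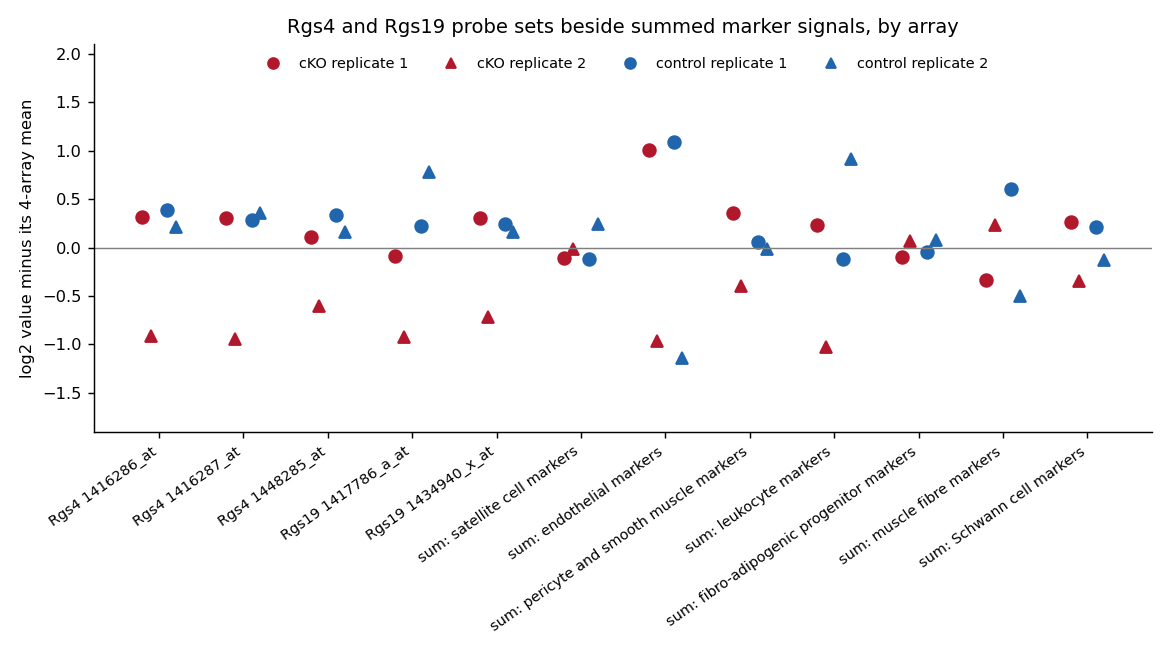
Log2 value minus its mean over the 4 arrays (vertical axis) for the probe sets of Rgs4 and Rgs19 and for the summed signal of each marker list, on cKO replicates 1 and 2 (red circle and triangle) and control replicates 1 and 2 (blue circle and triangle). Rgs4 and Rgs19 are lowest on cKO replicate 2, at -0.61 to -0.94. On that array the leukocyte sum is at -1.02 and the endothelial sum at -0.96. The pericyte and smooth muscle sum is there at -0.39 and the Schwann cell sum at -0.34. Satellite cell, fibro-adipogenic progenitor and muscle fibre sums are there at -0.02, 0.06 and 0.23. The endothelial sum separates the arrays by replicate number.

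Rgs19 1417786_a_at had both the widest range over the 4 arrays and the largest difference without overlap of the kept RGS probe sets. By Euclidean distance between mean-centred log2 values over 4 arrays, the nearest of 10139 other genes were Shc2 (0.09), Lmo2 (0.12) and Fcer1g (0.15). Shc2 read 73.8 and 44.1 in cKO and 97.3 and 137 in control cells. Lmo2 read 448 and 282 in cKO and 584 and 864 in control cells. Fcer1g, which is on the leukocyte list used here, read 90.1 and 54.8 in cKO and 108 and 175 in control cells. With 4 arrays, many genes can lie close by distance.

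Other Rgs genes were mostly below the filter. Of 13 further Rgs genes listed, 11 had probe sets, and only Rgs5 and Rgs20 passed on their brightest one. Rgs5, a well-known pericyte gene, read 4828 and 649 on cKO replicates 1 and 2 and 5200 and 442 on control replicates 1 and 2 on probe set 1417466_at. All 4 probe sets of Rgs5 were high on replicate 1 and low on replicate 2 of both groups, with gaps of 2.89 to 4.13 on the log2 scale between replicates and differences of 0.10 to 0.28 between cKO and control. Among the 16 kept RGS probe sets, the largest gap between replicates was 1.25, on Rgs4 1416287_at. Rgs1, known from lymphocytes, read 8.23 and 3.51 in cKO and 16.0 and 66.7 in control cells, the same order of arrays as Rgs19 1417786_a_at, at signals near or below the filter. Rgs20, the third RZ gene, read 97.6 and 112 in cKO and 111 and 41.2 in control cells on 1443694_at, and its groups overlapped. The log2 difference of this probe set was 0.62. Probe set 1446199_at of Rgs20 was also kept, at 0.30, and 1421493_a_at, below the filter, was at -0.53, both with overlap.

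**Figure D4:**
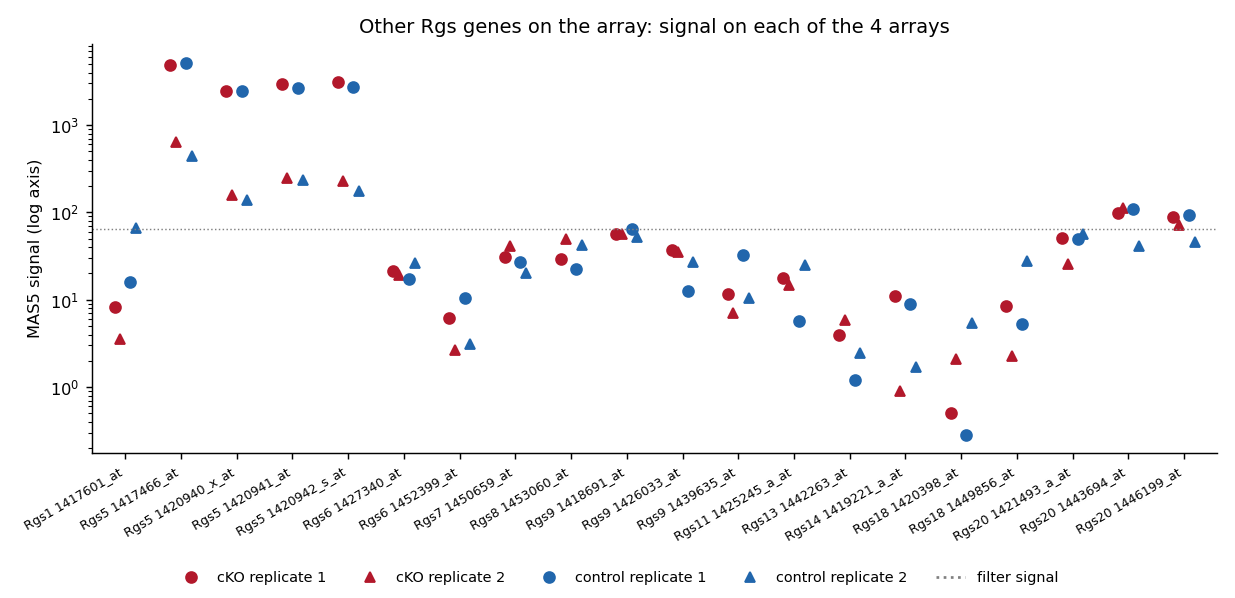
MAS5 signal (vertical log axis) of the 20 probe sets of 11 other Rgs genes on cKO replicates 1 and 2 (red circle and triangle) and control replicates 1 and 2 (blue circle and triangle), with the filter signal of 63.9 as a dotted line. The 4 probe sets of Rgs5 are high on both replicates 1 and low on both replicates 2, and most other probe sets lie below the dotted line.

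The 29 kept genes of 9 lists around the RGS proteins gave 0 calls, as did all 22519 probe sets tested. Each gene was counted on its brightest probe set, and the other Rgs genes were included. Not all listed genes encode targets or partners of RGS proteins. The lists also hold alpha subunits outside the reach of most RGS proteins, proteins with an RGS homology domain, and receptor kinases and arrestins. Of the 29 kept genes, 11 were above 0 and 18 below, against 41.1% and 58.9% of all kept probe sets. Their median log2 difference was -0.07, against -0.06 over all kept probe sets. The alpha subunits that RGS proteins act on had 2 above 0 and 4 below among 6 kept, with no gene whose groups did not overlap. Gnai2, a main Gi subunit, read 1797 and 1631 in cKO and 1688 and 2052 in control cells, and Gnaq read 640 and 577 in cKO and 680 and 591 in control cells. Gnas, the Gs subunit, read 4789 and 4496 in cKO and 4299 and 5156 in control cells. The R7 class partner Gnb5 was the only 1 of 3 partners that passed the filter, at a log2 difference of 0.31. Receptor kinases and arrestins, which silence the receptor rather than the G protein, had 1 above 0 and 4 below among 5 kept. The phospholipase C beta genes, effectors of Gq, had 0 above and 3 below among 3 kept. Groups did not overlap for 3 of the 29 genes, where the share over all kept probe sets was 21.4%. Both cKO arrays lay above the control arrays for all 3 (7.87% over all kept probe sets) and below them for 0 (13.5%). Gpsm2, which binds inactive Gi and orients the spindle in dividing cells, read 157 and 128 in cKO and 93.4 and 93.0 in control cells (log2 difference 0.60, SE 0.37). Snx13, a sorting nexin with an RGS homology domain, read 546 and 458 in cKO and 356 and 389 in control cells (log2 difference 0.43, SE 0.30). Arhgef11, a RhoGEF with such a domain, read 821 and 1201 in cKO and 792 and 795 in control cells (log2 difference 0.32, SE 0.28).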

How the data were processed

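The authors deposited 1 signal intensity on a linear scale for each probe set of each array, made with MAS5 per the submitters' processing notes. That algorithm sets matched against mismatched probes. Its version, its scaling target and detection calls are not given in the sources used here. Median signals were 68.8 and 57.9 for cKO and 70.4 and 64.4 for control replicates 1 and 2. Gene symbols came from the platform annotation. Of 45101 probe sets, 34945 had 1 symbol, 932 had several, 9160 had none and 64 were AFFX controls. A check by Entrez identifier found 34741 and changed 0 symbols. Values were analysed as log2(value + 1), so fold changes understate changes of dim probe sets; means and SDs are on the signal scale. The AFFX controls were left out, and probe sets at or above the median of the mean log2 values (a signal of 63.9) were kept. The groups were compared with limma 3.58.1 in R 4.3.3 (lmFit, eBayes with an intensity trend, 2-sided, Benjamini-Hochberg at 0.05) over 22519 probe sets, with no block. SE values are from this fit. The steps were run on simulated arrays with known changes, less noise than these arrays and no effect of replicate number. That run checks the code and not the error rates in these data. Named were every RGS probe set and, from each other list except the cell type markers, up to 4 genes whose groups did not overlap. The nearest genes by distance were named for the probe set with the widest range. Other genes are examples of their list, chosen after their values were seen. The RGS members and the lists were chosen with earlier results of these data known. Promoters are RefSeq windows of 250 bases, and motifs were searched on both strands. Alternatives were quantile normalization, centring on the median, a pseudocount of 32, no filter, a filter at the 75th percentile, no trend, a replicate block, leaving out each array, and an unadjusted threshold.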

Additional observations from a re-analysis of the deposited data

How the results depend on the processing

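The count of 0 probe sets called by limma was the same after quantile normalization, with centred arrays, with a pseudocount of 32, without a filter, with the stricter filter and without a trend, where 88 to 878 had an unadjusted p under 0.05. With the replicate number as a block it was 5, with 473 at an unadjusted p under 0.05. The titles share only a number, and deviations of same-numbered arrays correlated at 0.43 across 22519 probe sets. Leaving out 1 array gave 0 to 5 calls: 5 without cKO replicate 1 and 1 without control replicate 1. In those fits the lone array of a group is assumed to vary like the other group. An unadjusted p under 0.05 with a 2-fold difference was met by 81 probe sets. RGS probe sets above 0 in cKO minus control numbered 10 of 16, and 9 to 12 without 1 array; below 0 there were 6, and 4 to 7 without 1 array. With the stricter filter 6 of 10 kept were above 0, and without a filter 10 of 22 were below 0. Of 170 recomputed RGS differences, 9 changed sign, on 6 of 16 probe sets. Rgs10 changed sign in 4 of 11 alternatives, and 1 probe set each of Rgs2, Rgs4, Rgs12, Rgs16 and Rgs19 in 1, each time without 1 array. Rgs3 1425296_a_at stayed between 0.80 and 1.10, and Rgs19 1417786_a_at between -1.43 and -0.59. With 2 arrays a group, a p that misses the threshold does not show that levels were equal.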
